A study of Mus musculus with 6 samples.

Results

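The nuclear genes for the enzymes of oxidative phosphorylation were followed in whole mouse embryos that lack normal Zic2, a zinc finger transcription factor. The members were all probes whose annotated gene symbol starts with Ndufa, Ndufb, Ndufc, Ndufs, Ndufv, Sdha, Sdhb, Sdhc, Sdhd, Uqcr, Cyc1, Cox4i, Cox5, Cox6, Cox7, Cox8 or Atp5. They came to 143 of 45281 probes and 92 of 19057 named genes. Of these genes, 78 encode subunits of complexes I to V, 12 are assembly factors that the prefixes also take in (Ndufaf and Sdhaf), and the other two are a pseudogene, Ndufs5-ps, and Cox7a2l, which links complexes into supercomplexes. The rule uses names alone, but it was proposed with earlier results of these data known.

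RNA was taken from Zic2 iso/iso embryos and from their wildtype (Zic2 +/+) littermates, with 3 pools of 8 stage-matched embryos in each group and 1 Illumina Mouse WG6 v2 array per pool. All embryos were dissected between E8.0 and E8.5 from crosses of Zic2 iso/+ parents on a C3H/HeH background, and both sexes were used. The iso allele was induced with ENU and carries a stop codon in the fifth zinc finger of the protein, in every tissue of the embryo. The comparison asks which transcripts differ in level when Zic2 is mutated, and p-values from it measure only the spread among these 6 pools.

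Values are quantile-normalised log2 intensities, differences are Zic2 iso/iso minus wildtype on that scale, and a probe was called when limma gave it an adjusted p under 0.05 (Benjamini-Hochberg, across the whole array). For a gene with several probes the brightest over all 6 pools is given. A gene was counted as above background when its mean level passed 7.47, which 95% of 1606 probes stayed below that read odorant and pheromone receptors, hair keratin partners and defensins, families with no known use in an embryo of this age. In bulk RNA of this kind, fewer cells of a type and less RNA per cell cannot be told apart.

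The 3 Zic2 iso/iso pools had Zic2 at 7.64, 7.57 and 8.01, and the 3 wildtype pools at 8.27, 8.06 and 8.00, in the order of their replicate numbers, as throughout. Its mean was lower by 0.37, the groups overlapped through Zic2 iso/iso pool 3, and the probe was not called (limma, adjusted p = 0.614). A second Zic2 probe, just above background at a mean of 7.48, gave 0.12 with overlap (limma, adjusted p = 0.920). A stop codon need not alter the level of the mRNA, so these probes do not check the genotype. The pools were labelled whole embryo: 15 of 19 cardiac muscle genes measured, 12 of 13 visceral endoderm genes and 8 of 10 red cell genes were above background. So were 9 of 10 germ layer genes (Sox1 was below background) and 3 of 7 genes on a joint list for trophoblast and decidua. Between groups the summed log2 level of the cardiac genes was 13.4 to 14.3 in Zic2 iso/iso and 14.2 to 14.6 in wildtype pools, with a median difference of -0.31. None was called, 6 of the 15 above background had an unadjusted p under 0.05 (limma), against 11.1% of all genes above background, and their part in the values below was not tested. The array median before normalisation was 154 to 187 in Zic2 iso/iso and 158 to 164 in wildtype pools.

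Oxidative phosphorylation is carried out in the inner mitochondrial membrane. Complex I (NADH dehydrogenase) and complex II (succinate dehydrogenase, also an enzyme of the citrate cycle) pass electrons to ubiquinone, complex III passes them on to cytochrome c, and complex IV (cytochrome c oxidase) hands them to oxygen. Complexes I, III and IV pump protons as they do so, and complex V (ATP synthase) lets the protons back to make ATP. A few core subunits are encoded by mitochondrial DNA, and the rest, measured here, are nuclear genes. Heart and skeletal muscle replace some complex IV subunits by isoforms of their own, and the early mouse embryo is known for a high rate of glycolysis.

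Many nuclear genes of these complexes are read from promoters with binding sites for NRF1, for GABPA (NRF-2) or for YY1. The exact letters GCGCA and GCGC with any 1 base between them (NRF1), CCGGAAG (GABPA) and AAGATGGC (YY1) were searched on both strands of windows from 250 bases before to 50 after the annotated start, taken from RefSeq (GRCm38.p6). Of 92 members, 76 had such a window. The NRF1 letters were found in 20 of 76 members (26.3%), against 7.17% of 17492 protein-coding genes, the GABPA letters in 21 (27.6%), against 12.9%, and the YY1 letters in 11 (14.5%), against 3.57%. At least 1 of the 3 was found in 57.9% of members and in 21.0% of all genes. Members had 1.07 windows a gene and all genes 1.22. A match describes the letters and is not a site shown to be used.

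The 250 bases upstream of the start are shown for 4 members, with matches in capitals. Ndufa5 and Ndufb4 had the highest and the lowest difference in complex I. Cox6a1 is the widely used partner of the muscle isoform Cox6a2, and Cox8b is a muscle isoform in whose window none of the letters were found. The letters were also absent from the windows of Cox5b, Ndufa4 and Atp5b, so the windows shown do not tell muscle isoforms from other subunits. All 4 genes shown lie on the minus strand, and each sequence is written 5′ to 3′ along the gene.
Ndufa5, chr6:24527691-24527940: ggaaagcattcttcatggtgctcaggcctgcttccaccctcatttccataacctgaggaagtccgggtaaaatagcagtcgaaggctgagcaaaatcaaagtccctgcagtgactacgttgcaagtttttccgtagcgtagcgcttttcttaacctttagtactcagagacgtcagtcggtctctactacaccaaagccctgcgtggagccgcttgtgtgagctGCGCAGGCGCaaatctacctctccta
Ndufb4, chr16:37654369-37654618: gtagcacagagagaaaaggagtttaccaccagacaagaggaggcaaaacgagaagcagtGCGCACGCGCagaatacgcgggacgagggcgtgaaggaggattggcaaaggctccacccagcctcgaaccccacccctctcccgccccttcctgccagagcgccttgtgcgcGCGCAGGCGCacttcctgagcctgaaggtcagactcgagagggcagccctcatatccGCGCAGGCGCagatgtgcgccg
Cox6a1, chr5:115348959-115349208: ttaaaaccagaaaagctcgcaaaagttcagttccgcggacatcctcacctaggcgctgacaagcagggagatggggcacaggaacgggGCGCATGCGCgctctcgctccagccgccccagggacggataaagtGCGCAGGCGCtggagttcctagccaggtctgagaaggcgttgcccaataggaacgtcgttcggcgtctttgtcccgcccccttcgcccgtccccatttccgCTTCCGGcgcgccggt
Cox8b, chr7:140900447-140900696: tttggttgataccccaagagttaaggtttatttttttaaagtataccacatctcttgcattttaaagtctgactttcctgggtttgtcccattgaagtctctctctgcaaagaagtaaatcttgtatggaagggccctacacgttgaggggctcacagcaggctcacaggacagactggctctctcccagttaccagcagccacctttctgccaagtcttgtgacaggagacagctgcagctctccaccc
In Ndufa5 the NRF1 letters ended 17 bases before the start. Ndufb4 held them at 3 places, 22 to 13, 79 to 70 and 191 to 182 bases before the start. In Cox6a1 they lay 162 to 153 and 117 to 108 bases before the start, and the GABPA letters, on the other strand, ended 10 bases before it.

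Most of these genes gave bright signals. Of the 92, 84 were above background (91.3%), against 54.8% of all genes. Their mean levels ran from 7.65 to 14.8, and 39 of the 84 (46.4%) lay between 12 and 14, where 8.01% of all genes above background lay. A further 10 (11.9%) were over 14, against 1.33%. A probe's brightness depends on its own sequence as well as on its transcript, so these bands describe the signal and do not rank the genes. The highest member intensity, 32464.5 for Atp5b in Zic2 iso/iso pool 1, was below the brightest spot of that array (43345.5). Below background were Ndufs1, Sdha, Uqcrfs1, Cox6a2, Cox7b2, Cox8b, Cox8c and Ndufaf6. Ndufs1, Sdha and Uqcrfs1 encode subunits that every respiring cell uses, so a probe below background does not show that the transcript was missing.

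**Figure D1:**
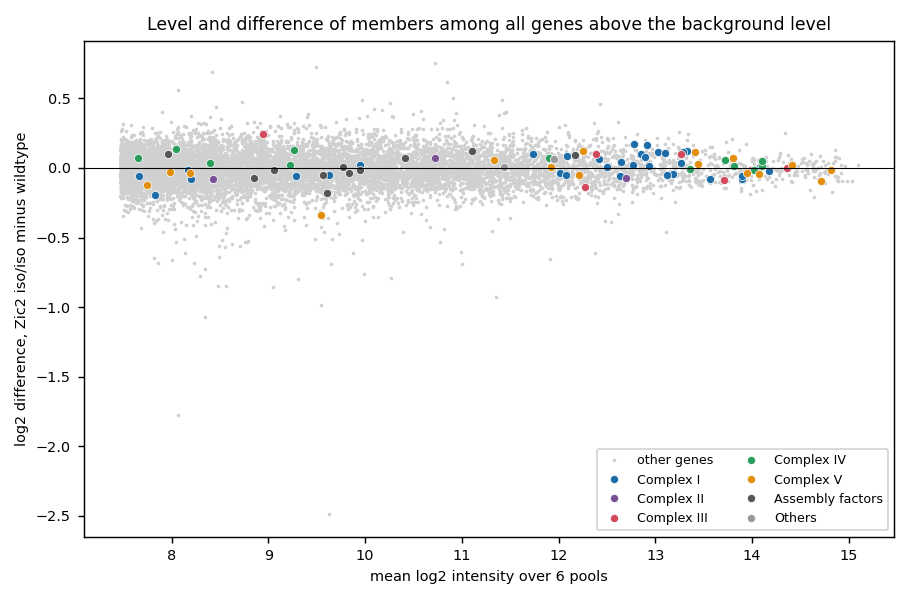
Mean log2 intensity over the 6 pools (x axis) and log2 difference, Zic2 iso/iso minus wildtype (y axis), of 84 members (coloured by complex) among 10438 genes above background (grey). The members crowd to the right, where the signal is bright, and all but Atp5a1 lie within 0.25 of 0.

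Between the groups, no member differed by an amount that passed the test. None of the 143 member probes was called, where 0.0442% of all probes were (20 of 45281). At an unadjusted p under 0.05 there were 4 of 143 (2.80%), against 6.02% of all probes, and these were the probes of Uqcrq, Ndufa5 and Sdhaf3 described with their complexes and a probe of Atp5o below background. Of the 84 genes above background, 46 had a higher and 38 a lower mean in Zic2 iso/iso pools (47.5% of all genes above background had a higher one), and their median difference was 0.0089, where that of all genes above background was -0.0069. With a pool left out in turn, the members' median ran from -0.03 (without Zic2 iso/iso pool 1) to 0.05 (without Zic2 iso/iso pool 3). Differences stayed within 0.1 either way for 64 of the 84 (76.2%), against 65.8% of all genes, and passed 0.25 for 1 (Atp5a1), against 3.78%.

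The intervals give the precision of these differences. The 95% interval of the difference lay inside a 1.5-fold change in either direction for 83 of the 84 genes, Atp5a1 being the exception, and inside a 1.25-fold change for 74. The interval reached 0.163 to either side of the difference in the median, from 0.137 for Ndufv2 to 0.358 for Cox6c. At an unadjusted p under 0.05 in limma there were 3 of the 84 genes, against 11.1% of all genes above background, and an adjusted p under 0.05 was reached by 0.172% of those genes. Pools that did not overlap between groups were found for 11 of 143 member probes (7.69%), against 10.6% of all probes, and for 6 of the 84 genes (7.14%), against 12.0% of all genes above background. Of the 6, 5 were higher in Zic2 iso/iso (Ndufa5, Ndufa9, Ndufs3, Uqcrq and Atp5j), where 4.88% of all genes were, and 1 was lower (Cyc1), where 7.15% were. For each of the 6 the exact two-sided permutation test over pools gave p = 0.1, the smallest that 3 pools against 3 can give. Pools that lie apart always give that value, so it adds nothing to the separation itself.

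**Figure D2:**
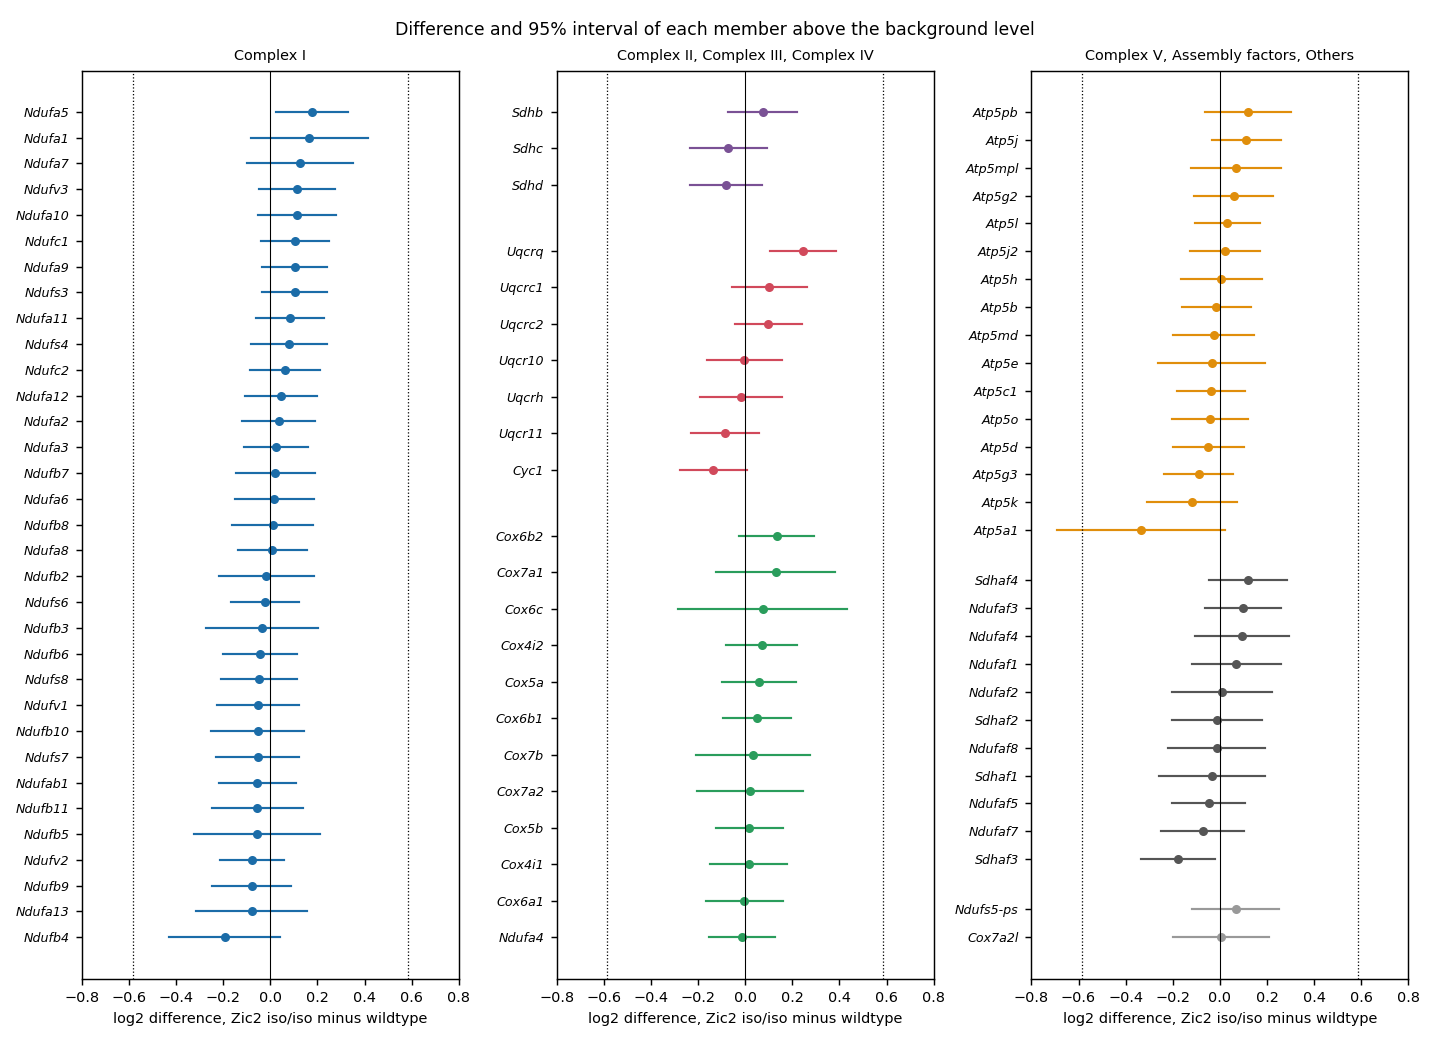
Log2 difference, Zic2 iso/iso minus wildtype (points), with its 95% interval from limma (bars) for the 84 members above background, by complex. Dotted lines mark a 1.5-fold change either way, and the interval of Atp5a1 alone crosses one.

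Complex I had 33 of 34 genes above background, with a median difference of 0.0093 and a range from -0.19 to 0.17. None was called, 18 had a higher and 15 a lower mean. With a pool left out the median ran from -0.0013 (without wildtype pool 2) to 0.04 (without wildtype pool 3). The highest was Ndufa5, a small accessory subunit of the arm that reaches into the matrix. Its levels were 12.94, 12.82 and 12.85 in Zic2 iso/iso pools and 12.62, 12.79 and 12.67 in wildtype pools. Each Zic2 iso/iso pool lay above each wildtype pool, by as little as 0.02 between the nearest. The difference was 0.17 ± 0.07 (SE), or 1.13-fold, with limma's adjusted p = 0.788, and a dimmer second probe gave 0.14. The gene lies at chr6:24518662-24527690.

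The lowest was Ndufb4, an accessory subunit of the membrane arm, at 8.00, 7.59 and 7.59 in Zic2 iso/iso pools and 7.94, 7.78 and 8.04 in wildtype pools. Pools 2 and 3 of Zic2 iso/iso were the lowest of the 6, while pool 1 lay among the wildtype values, and the difference of -0.19 ± 0.11 (SE) was not called (limma, adjusted p = 0.898). It was -0.33 without Zic2 iso/iso pool 1, -0.12 without pool 2 or pool 3 of Zic2 iso/iso, -0.29 after normexp background correction and -0.10 without normalisation. Ndufa9, an accessory subunit at the joint of the arms, stood at 12.90, 12.87 and 12.95 in Zic2 iso/iso and 12.83, 12.82 and 12.75 in wildtype pools. Ndufs3, a core subunit of the module that binds ubiquinone, stood at 11.85, 11.76 and 11.75 in Zic2 iso/iso and 11.65, 11.68 and 11.72 in wildtype pools. Both differed by 0.10, without overlap, and neither was called (limma, adjusted p = 0.913 and 0.915).

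The other core subunits above background had slightly lower means in Zic2 iso/iso pools. They were Ndufv1, which oxidises NADH at its flavin (-0.05), and the iron-sulphur subunits Ndufv2 (-0.08), Ndufs7 (-0.05) and Ndufs8 (-0.05), with overlapping pools in each. The most signal in complex I came from Ndufs6, a zinc-binding accessory subunit, from Ndufb8 of the membrane arm and from Ndufa13, also known as GRIM19. Ndufs6 had 14.12, 14.12 and 14.26 in Zic2 iso/iso and 14.18, 14.18 and 14.21 in wildtype pools. Ndufb8 had 14.22, 13.96 and 14.08 in Zic2 iso/iso and 14.00, 14.05 and 14.17 in wildtype pools. For both, and for Ndufa13 (-0.08), the groups overlapped and the means differed by less than 0.1. Between Ndufa5 and Ndufb4, the other subunits of complex I above background ran from -0.08 (Ndufa13) to 0.17 (Ndufa1), and those not named here overlapped between groups.

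Complex II had 3 of 4 genes above background, with a median of -0.07, which was -0.02 without Zic2 iso/iso pool 3, -0.03 without Zic2 iso/iso pool 2 and -0.04 without wildtype pool 1. Sdhb, the iron-sulphur subunit, had the highest difference, at 10.78, 10.84 and 10.67 in Zic2 iso/iso and 10.69, 10.71 and 10.67 in wildtype pools (0.07). That is its brightest probe. The 3 Sdhb probes above background ran from -0.16 to 0.07, and the mean over the gene's probes gave -0.04. Sdhd, a membrane anchor, had the lowest, at 8.48, 8.28 and 8.39 in Zic2 iso/iso and 8.46, 8.51 and 8.42 in wildtype pools (-0.08). Sdhc, the other anchor, differed by -0.07. The brightest probes of these 3 genes overlapped between groups. Among the brightest probes of the complex the smallest adjusted p (limma) was 0.885, for Sdha, the flavin subunit, which was below background (mean 7.16).

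Complex III had 7 of 8 genes above background and the smallest adjusted p of any member. Uqcrq, a small subunit that sits beside cytochrome b, stood at 9.07, 9.06 and 9.09 in Zic2 iso/iso pools and 8.82, 8.76 and 8.89 in wildtype pools. The groups were apart, and the spread within Zic2 iso/iso was narrow (SD 0.016, n = 3, against 0.063 in wildtype, n = 3). Its difference of 0.25 ± 0.06 (SE), 1.19-fold, had an unadjusted p of 0.0023 and an adjusted p of 0.473 by limma, and was not called. The second Uqcrq probe, below background at a mean of 7.24, gave -0.07, and the mean of both probes gave 0.086. The gene lies at chr11:53427922-53430831.

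Cyc1, cytochrome c1, which hands electrons to cytochrome c, was the lowest of the complex. It stood at 12.19, 12.15 and 12.29 in Zic2 iso/iso and 12.30, 12.37 and 12.36 in wildtype pools, so that the groups were apart by 0.01 between the nearest pools. Its difference was -0.13 ± 0.07 (SE), with adjusted p = 0.859 by limma, and the gene lies at chr15:76343513-76346260. The core subunits Uqcrc1 and Uqcrc2 both had higher means, by 0.10, with the pools of each group overlapping. The small subunits Uqcr10, Uqcrh and Uqcr11, the brightest of the complex, differed by -0.0033, -0.02 and -0.09. Uqcrfs1, the Rieske iron-sulphur protein, lay below background at 7.44, 7.41 and 7.53 in Zic2 iso/iso and 7.47, 7.35 and 7.39 in wildtype pools.

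**Figure D3:**
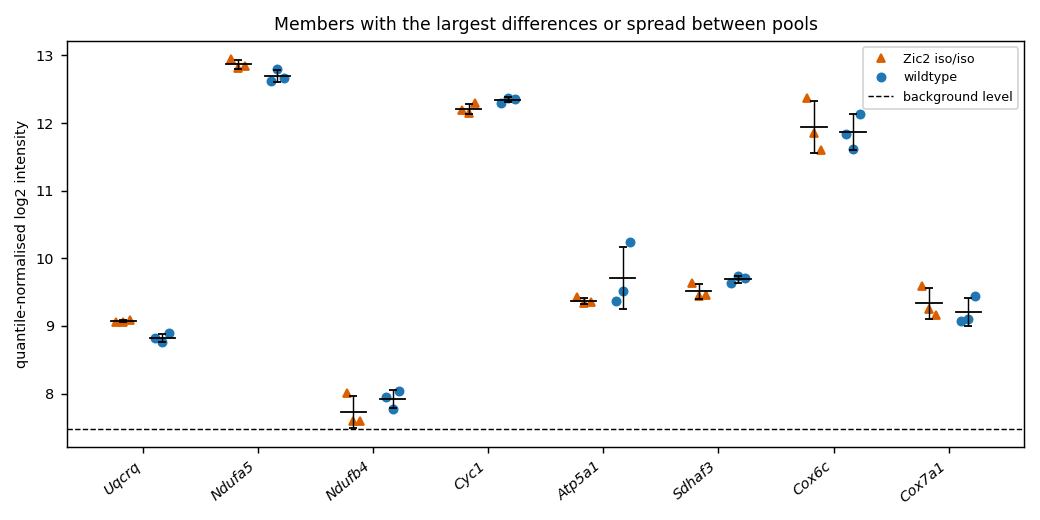
Log2 intensity in each pool (points) for 8 members picked by hand for their difference or spread, with the mean and SD of 3 pools. Zic2 iso/iso (triangles) lies left of wildtype (circles), and Ndufa1 and Ndufb5, also of wide spread, are not shown. Uqcrq, Ndufa5 and Cyc1 do not overlap between groups, while the width of Atp5a1 in wildtype comes from 1 pool at 10.24.

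Complex IV had 12 of 16 genes above background. Of these, 10 had a higher and 2 a lower mean in Zic2 iso/iso pools, with a median of 0.04, and none was called or had pools apart. The median was -0.0060 without Zic2 iso/iso pool 1, 0.10 without Zic2 iso/iso pool 3, 0.02 without wildtype pool 1 and 0.08 without wildtype pool 3. The brightest were Cox6b1, which faces the space between the membranes, Cox5b, which binds zinc on the matrix side, and Ndufa4, once assigned to complex I. Cox6b1 had 14.18, 14.18 and 14.03 in Zic2 iso/iso and 14.10, 14.07 and 14.07 in wildtype pools (0.05). Cox5b had 14.04, 14.13 and 14.14 in Zic2 iso/iso and 14.03, 14.08 and 14.15 in wildtype pools (0.02). Ndufa4, the lowest of the complex, had 14.02, 13.97 and 14.05 in Zic2 iso/iso and 14.08, 13.97 and 14.03 in wildtype pools (-0.01). In these 3 the groups overlapped, as they did in Cox5a (0.06).

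Of the isoforms of complex IV known from particular tissues, all but Cox7a1 and Cox6b2 (mean 8.04) were near or below background. Cox6a2, of heart and skeletal muscle, was at 7.40, 7.21 and 7.27 in Zic2 iso/iso and 7.44, 7.19 and 7.50 in wildtype pools. All values but that of wildtype pool 3 were under the background level, so nothing can be said of its difference. Cox8b, also of muscle (7.16, 7.33 and 7.31 in Zic2 iso/iso and 7.23, 7.24 and 7.30 in wildtype pools), was below it in every pool, and so were the testis isoforms Cox7b2 and Cox8c. Cox4i2, known from lung, was just above it, at 7.77, 7.68 and 7.62 in Zic2 iso/iso and 7.69, 7.55 and 7.61 in wildtype pools. Cox6b2, known from testis, had the highest difference of the complex, at 8.05, 8.20 and 8.08 in Zic2 iso/iso and 7.93, 8.09 and 7.91 in wildtype pools (0.13 ± 0.07 SE, limma's adjusted p = 0.895). Wildtype pool 2 lay within the range of the Zic2 iso/iso pools.

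Cox7a1, the muscle isoform of Cox7a, was well above background. It stood at 9.59, 9.25 and 9.16 in Zic2 iso/iso and 9.08, 9.10 and 9.44 in wildtype pools. Its widely used partner Cox7a2 had 9.47, 9.16 and 9.07 in Zic2 iso/iso and 9.06, 9.20 and 9.37 in wildtype pools. Both were highest in Zic2 iso/iso pool 1, with wildtype pool 3 next, and the groups overlapped in each. For the 3 isoform pairs with both probes above background, the difference within each array was compared between groups by the exact two-sided permutation test, adjusted over the 3. Cox7a1 over Cox7a2 was higher in Zic2 iso/iso by 0.11 (exact p = 0.1, adjusted 0.3), Cox6b2 over Cox6b1 by 0.08 (p = 0.2, adjusted 0.3) and Cox4i2 over Cox4i1 by 0.06 (p = 0.4, adjusted 0.4). Of the widely used partners, Cox4i1 stood at 13.95, 13.79 and 13.72 in Zic2 iso/iso and 13.73, 13.82 and 13.86 in wildtype pools, and Cox6a1 at 13.43, 13.36 and 13.27 in Zic2 iso/iso and 13.32, 13.48 and 13.27 in wildtype pools. None of the pairs passed, and 3 pools against 3 could not have done so at 0.05.

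**Figure D4:**
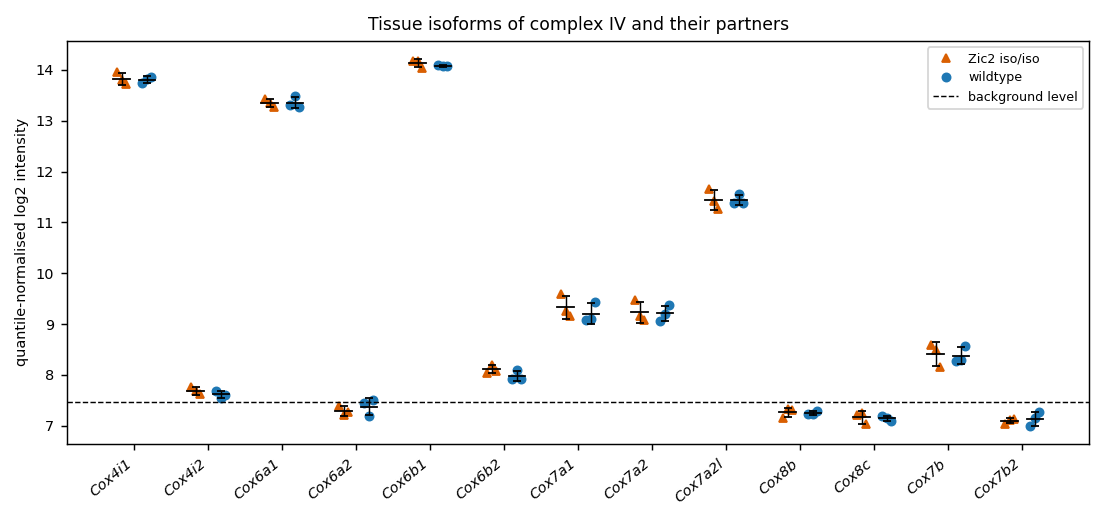
Log2 intensity in each pool of complex IV isoforms and of their partners, Zic2 iso/iso (triangles) left of wildtype (circles), with the mean and SD of 3 pools. A dashed line marks background (7.47). Of the tissue isoforms, Cox7a1, Cox6b2 and, by little, Cox4i2 lie above it, and the means of Cox6a2, Cox8b, Cox8c and Cox7b2 lie below it.

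Complex V had all 16 genes above background, with a median of -0.02. The median was 0.01 without Zic2 iso/iso pool 3, 0.02 without wildtype pool 3 and -0.04 without wildtype pool 1. The widest difference of any member was that of Atp5a1, the alpha subunit of the catalytic head. It stood at 9.42, 9.34 and 9.35 in Zic2 iso/iso and at 9.38, 9.51 and 10.24 in wildtype pools. The value of wildtype pool 3 lay 0.73 above the next, while the other 5 pools lay between 9.34 and 9.51. The difference was -0.34 ± 0.16 (SE) with limma's adjusted p = 0.858, and it was -0.07 without wildtype pool 3. A second Atp5a1 probe, at a mean of 7.92, gave 0.10. Atp5b, the beta subunit, which holds the catalytic sites, was at 14.78, 14.76 and 14.89 in Zic2 iso/iso and 14.83, 14.76 and 14.88 in wildtype pools (-0.01).

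Of the genes for subunit c, which forms the ring in the membrane, Atp5g3 had 14.61, 14.75 and 14.65 in Zic2 iso/iso and 14.70, 14.79 and 14.80 in wildtype pools (-0.09), and Atp5g2 differed by 0.06, both with overlap. Atp5c1 and Atp5d of the central stalk differed by -0.04 and -0.05. Atp5pb, of the peripheral stalk, had the highest difference, at 12.45, 12.29 and 12.19 in Zic2 iso/iso and 12.29, 12.24 and 12.06 in wildtype pools (0.12 ± 0.08 SE, limma's adjusted p = 0.930). That is its brightest probe. The 4 Atp5pb probes above background ran from -0.13 to 0.12, and the mean over the gene's probes gave 0.015. Atp5j, coupling factor 6 of that stalk, had 13.41, 13.52 and 13.47 in Zic2 iso/iso and 13.41, 13.39 and 13.27 in wildtype pools, apart by 0.0031 between the nearest. A second Atp5j probe was apart the other way, at 9.76, 9.87 and 9.76 in Zic2 iso/iso and 9.91, 9.92 and 9.87 in wildtype pools (-0.10). Neither probe was called. Among the small membrane subunits Atp5k, Atp5md, Atp5l, Atp5j2 and Atp5mpl, Atp5k had the lowest difference (-0.12), Atp5mpl the highest (0.07) and Atp5j2 the most signal (0.02), with overlapping pools in all of them.

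Probes of other member genes also differed in sign. Some did so at differences near 0, as in Ndufa3 (-0.00071 and 0.023). Others ranged as widely as the differences given above for single genes, such as Ndufv3 (-0.11 to 0.11), Ndufb6 (-0.04 to 0.18) and Ndufs4 (-0.09 to 0.12). The share over all genes was not counted. For 26 genes more than 1 probe was above background, and the sign of the difference was shared by all of a gene's probes in 11 and not in 15. The range between probes of a gene was 0.075 in the median and 0.44 at most, for Atp5a1. Which transcripts each probe reads was not tested.

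The assembly factors taken in by the prefixes, 11 of 12 above background, had a median of -0.01. Sdhaf3, which helps to place iron-sulphur clusters in Sdhb, had the lowest difference, at 9.64, 9.45 and 9.46 in Zic2 iso/iso and 9.64, 9.73 and 9.71 in wildtype pools. Pool 1 of Zic2 iso/iso lay level with wildtype pool 1 and the other two lay below all wildtype pools (-0.18 ± 0.07 SE, limma's adjusted p = 0.788), and a second probe gave -0.02. Sdhaf4, which acts on Sdha, had the highest, at 11.29, 11.10 and 11.09 in Zic2 iso/iso and 10.96, 11.03 and 11.14 in wildtype pools (0.12). The complex I factors Ndufaf1 and Ndufaf4 differed by 0.07 and 0.09, with overlap.

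Across the members, the medians of single pools differed by more than those of the genotypes. After each gene's own mean over the 6 pools was taken away, the median over the 84 members was 0.07 in pool 1, -0.01 in pool 2 and -0.04 in pool 3 of Zic2 iso/iso, and -0.05 in pool 1, -0.02 in pool 2 and 0.05 in pool 3 of wildtype. Over all genes above background the same medians stayed between -0.015 and 0.011. Zic2 iso/iso pool 1 was high and so was wildtype pool 3, and the range within each genotype was wider than the difference between genotypes. Pool 1 of Zic2 iso/iso held the highest of the 6 values in 38 of 84 members (45.2%), against 17.7% of all genes, and wildtype pool 3 in 20 (23.8%), against 21.2%. The lowest value was most often in Zic2 iso/iso pool 3 (25 members, 29.8%, against 16.9% of all genes).

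Complexes I, III, IV and V each had Zic2 iso/iso pool 1 and wildtype pool 3 as the highest pair, but the order of the other pools varied. In complex III, Zic2 iso/iso pool 2 was lowest (-0.07) and pool 3 stood at 0.01. Among the complexes the shifts were widest in complex IV (0.12 in Zic2 iso/iso pool 1 and -0.08 in pool 3). Assembly factors had 0.15 and -0.14 in the same pools. Complex II, with 3 genes, had Zic2 iso/iso pool 2 highest (0.07). Cox6c, a small complex IV subunit, had the widest spread of any member, at 12.36, 11.86 and 11.60 in Zic2 iso/iso and 11.84, 11.61 and 12.14 in wildtype pools (pooled SD 0.33). The pooled SD was over 0.2 in 6 of 84 members (Cox6c, Atp5a1, Ndufb5, Cox7a1, Ndufa1 and Cox7b), or 7.14%, against 5.85% of all genes. Without Zic2 iso/iso pool 1 the members' median difference was -0.03.

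Other measures also differed between these pools. Before normalisation the array median was 187 in pool 1, 164 in pool 2 and 154 in pool 3 of Zic2 iso/iso, and 164, 164 and 158 in the wildtype pools. Hbb-bh1, an embryonic haemoglobin gene of primitive red cells, had 12.87, 10.75 and 9.04 in Zic2 iso/iso and 11.55, 11.74 and 12.17 in wildtype pools. It was named as the extreme of its list and does not stand for the rest. Its difference was -0.93, where the 8 red cell genes above background had a median of -0.09 and the highest, Tal1, had -0.0072. The 8 red cell genes above background summed to 12.9 to 13.8 on the log2 scale in Zic2 iso/iso and 13.0 to 14.1 in wildtype pools. Their part in the order of the pools was not tested.

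**Figure D5:**
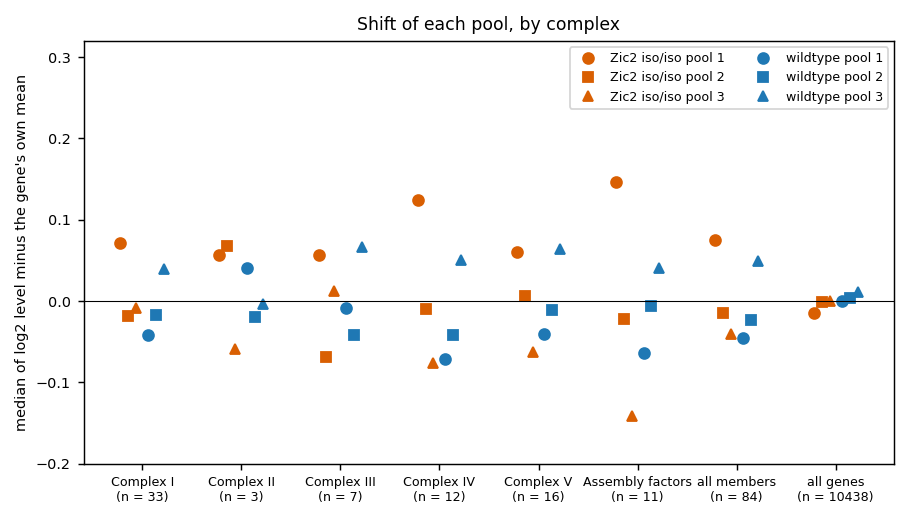
Median over the genes of a complex of the log2 level minus the gene's own mean (y axis) in each of the 6 pools, Zic2 iso/iso (orange) left of wildtype (blue). Zic2 iso/iso pool 1 and wildtype pool 3 lie high for complexes I, III, IV and V, while the medians of all genes stay near 0.

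The regulators named with these promoters were measured too, on a list written from general knowledge. Of 13 genes for nuclear control of mitochondria, 11 were above background, with a median of 0.06 and none called. At an unadjusted p under 0.05 (limma) there were 2 of the 11, against 11.1% of all genes above background. Pools were apart in 3 of the 11, against 12.0%. Gabpa, whose protein binds the GABPA letters, stood at 8.43, 8.41 and 8.44 in Zic2 iso/iso and 8.25, 8.13 and 7.95 in wildtype pools, so that the groups were apart, with a difference of 0.32 ± 0.08 (SE, limma's adjusted p = 0.414). Nrf1, whose protein binds the NRF1 letters, stood at 10.22, 10.57 and 10.47 in Zic2 iso/iso and 10.60, 10.64 and 10.60 in wildtype pools, apart the other way (-0.19 ± 0.08 SE, limma's adjusted p = 0.820). Tfam, which packs and transcribes mitochondrial DNA, was also apart, at 10.86, 10.76 and 10.75 in Zic2 iso/iso and 10.67, 10.70 and 10.62 in wildtype pools (0.13, limma's adjusted p = 0.880), while Yy1 and Ppargc1a were below background.

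On the lists of assembly factors and of carriers, no gene was called. The list of 39 assembly factors of the whole chain shares 11 genes with the members. Of 38 measured, 33 were above background, with a median of -0.02 and 0 called. At an unadjusted p under 0.05 in limma there were 4 of the 33, against 11.1% of all genes above background. In 3 of the 33 the pools were apart, against 12.0%. The lowest was Coa5, which complex IV needs for its assembly, at 11.02, 10.95 and 10.93 in Zic2 iso/iso and 11.20, 11.17 and 11.27 in wildtype pools. Those groups were apart, with a difference of -0.25 ± 0.06 (SE) and limma's adjusted p = 0.469. Among 13 carriers and partners above background, such as the ADP/ATP carrier Slc25a5 (-0.00053) and cytochrome c, Cycs (0.04), differences ran from -0.06 for Immt to 0.10 for Vdac3, with 0 called and 0 at an unadjusted p under 0.05 (limma). The members lie on 19 chromosomes, 3 of them on X, and none shares chromosome 14 with Zic2.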

How the data were processed

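Whole-embryo RNA (RNeasy Plus Micro kit) was hybridised to Illumina Mouse WG6 v2 arrays. The authors deposited linear probe intensities for 45281 probes in 6 pools. The methods name variance stabilisation, but the deposited intensities had a minimum of 104 to 122 in each pool and unequal medians, so neither that step nor background subtraction had been applied to them. They were floored at 1, converted to log2 and quantile normalised. The genotypes were compared in R 4.3.3 by limma 3.58.1, probe by probe over all 6 pools, through lmFit and eBayes with no covariate, and p-values were adjusted (Benjamini-Hochberg) across the array. Pearson's r across probes was 0.993 to 0.995 between pools, and no 2 pools held the same values. The number of arrays limits the precision, and since background was not subtracted, differences of dim probes understate those of their transcripts.

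Probes were named from the platform annotation (34885 with 1 symbol, 18 with several, 10378 with none), and positions and promoter windows came from RefSeq tables of GRCm38.p6. In each complex the members with the highest and lowest difference and the 3 brightest were named, with all tissue isoforms and their partners, and for other lists the gene with the largest difference. Further genes, such as those with pools apart or a wide spread, were picked with their values in view. The members and lists were chosen with earlier results of these data known. Ndufa4 was counted with complex IV.

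The fit was tested on simulated data, where most of the smallest changes given were not called and the intervals held the true difference less often than their nominal level for some sizes of change. Alternatives were other scalings, normexp (offset 50), a filter on dim probes, other variance priors, array weights, the replicate block, each pool left out, probes averaged by gene and thresholds of 0.01 and 0.10. Isoform pairs without normalization and with normexp were added after seeing the data.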

Additional observations from a re-analysis of the deposited data

How the results depend on the processing

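No member probe was called under any of the 17 alternatives, and the smallest adjusted p of a member in them (limma) was 0.404, for Atp5a1 without wildtype replicate 1, where its difference was -0.50. Without normalization between arrays the members' median was 0.092, and the medians of complexes I to V were 0.086, 0.0072, 0.092, 0.13 and 0.068, while that of all genes above background was 0.072. The count of all probes called was 4 without normalization, 11 with centring on the median, 31 with an intensity trend, 13 with probes averaged by gene and 34 at a threshold of 0.10, against 20 in the fit reported. The cause was not tested. With a pool left out it ran from 14 to 28. The Uqcrq difference ran from 0.086 (probes averaged by gene) to 0.34 (no normalization). The isoform pairs kept their direction in both settings added after seeing the data.

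The replicate numbers did not pair the pools: deviations of pools with the same number correlated at -0.126, -0.02 and -0.122 across probes, and no pool correlated best with its own number. With the replicate block 17 probes were called, of which 0 were members.

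With 3 pools a group, the 95% interval of a member's difference reached 0.163 to either side in the median, so a difference within its own interval's reach could not be told from 0.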

Other observations

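Beyond the complexes themselves, the citrate cycle and pyruvate dehydrogenase, which supply their NADH and succinate, were measured by 14 genes, of which 13 were above background. Their median difference was -0.02, 0 were called and 3 had an unadjusted p under 0.05 (limma), against 11.1% of all genes above background. In 4 of the 13 the pools were apart, where 12.0% of all genes above background were. Idh3a, a subunit of isocitrate dehydrogenase, stood at 9.70, 9.88 and 9.78 in Zic2 iso/iso and 9.91, 9.99 and 10.06 in wildtype pools (-0.20 ± 0.07 SE, limma's adjusted p = 0.740). Suclg1, a subunit of succinyl-CoA ligase, was apart the other way, at 13.02, 12.86 and 13.09 in Zic2 iso/iso and 12.76, 12.86 and 12.77 in wildtype pools (0.20 ± 0.07 SE, limma's adjusted p = 0.750). Dlat of pyruvate dehydrogenase was lower (-0.14) and Ogdh of oxoglutarate dehydrogenase higher (0.08), both without overlap and neither called.

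The mitochondrial ribosome, which translates the subunits encoded by mitochondrial DNA, had 72 of 76 genes above background, with a median of -0.03 and 0 called. Pools were apart in 2 of the 72, against 12.0% of all genes above background. Only 1 of the 72 had an unadjusted p under 0.05 (limma), against 11.1%. That gene was Mrps15, of the small ribosomal subunit, at 8.16, 8.18 and 8.17 in Zic2 iso/iso and 8.34, 8.57 and 8.66 in wildtype pools. Its groups were apart, with a difference of -0.35 ± 0.08 (SE) and limma's adjusted p = 0.327. The highest difference was that of Mrpl13, of the large subunit, at 0.15 with overlapping pools.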
